A study of Mus musculus with 8 samples.

Results

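The miR-23, miR-27 and miR-24 genes of the mouse lie in a pair of paralogous clusters, here called cluster a (Mir23a, Mir27a, Mir24-2) and cluster b (Mir23b, Mir27b, Mir24-1). Of the 443 mature sequences counted in liver, 9 established members were taken by name, with the prefix mmu for the mouse. They were mmu-miR-23a-3p, mmu-miR-27a-5p, mmu-miR-27a-3p and mmu-miR-24-2-5p of cluster a, mmu-miR-23b-3p, mmu-miR-27b-5p, mmu-miR-27b-3p and mmu-miR-24-1-5p of cluster b, and mmu-miR-24-3p, which both clusters make with the same sequence. The libraries came from liver of male mice of the inbred strain C57BL/6J, aged 10 to 11 weeks. For 2 weeks the mice had eaten either normal chow (4 libraries) or a high-fructose diet (HFrD, 4 libraries), and the labels call the second group a model of nonalcoholic fatty liver disease. HFrD supplied 10% of its energy as fat, 70% as carbohydrate and 20% as protein. What the chow contained was not given in the sources used here. Fructose and other differences between the diets therefore cannot be told apart. No genotype, transgene or other agent is given for either group, and nothing states that each library came from its own mouse, so p-values measure the spread between these libraries.

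A miRNA hairpin is cut into a 5p and a 3p strand. Usually 1 of them, the guide, is loaded into Argonaute and pairs with messenger RNAs through its seed, bases 2 to 8, while the other, the passenger, is mostly degraded. The hairpins of a cluster are transcribed together, but each is processed and its products decay separately. In liver, miR-27 is known for repressing genes of lipid metabolism, and miR-24 for repressing Insig1, which restrains the synthesis of lipids. miR-23 represses glutaminase in human cells, and these clusters are also known for their part in the growth of vessels by endothelial cells.

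The mature sequences are shown first, because the comparison of clusters rests on how alike they are. Capitals mark the seed, and each sequence is that of the deposited table. It matched RefSeq (GRCm38.p6) where RefSeq listed it, and miR-23b-3p was located within the RefSeq hairpin of Mir23b.
miR-27a-3p: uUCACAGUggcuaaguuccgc
miR-27b-3p: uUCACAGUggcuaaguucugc
miR-23a-3p: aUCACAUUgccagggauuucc
miR-23b-3p: aUCACAUUgccagggauuacc
miR-24-3p: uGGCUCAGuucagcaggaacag
miR-24-2-5p: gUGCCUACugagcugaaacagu
miR-24-1-5p: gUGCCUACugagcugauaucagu
miR-27a-5p: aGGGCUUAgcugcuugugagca
miR-27b-5p: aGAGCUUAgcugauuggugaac

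miR-27a-3p and miR-27b-3p share their seed and 20 of 21 bases, with the substitution C19U (position counted from 1 at the 5′ end, the base of the a form first). miR-23a-3p and miR-23b-3p also share 20 of 21 bases and differ by U19A. The seeds of miR-23 and miR-27 are alike but not the same. The 5p strands of Mir24-1 and Mir24-2 have the same first 16 bases. Those of Mir27a and Mir27b share 14 of 22 bases, counted position by position without gaps, and have different seeds. No other established miRNA of the table had any of these seeds, and bases 3 to 9 of miR-27 are the seed of miR-128-3p (CACAGUG).

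The hairpins from which the strands are cut show both arms, in capitals, in RefSeq's sequence on GRCm38.p6. They are given for miR-27, whose 3p and 5p strands were unequal between the clusters in opposite directions, and for miR-24, whose hairpins share the 3p strand and differ in the 5p strand.
Mir27a: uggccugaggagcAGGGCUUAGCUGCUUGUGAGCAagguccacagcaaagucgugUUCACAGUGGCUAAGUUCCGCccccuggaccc
Mir27b: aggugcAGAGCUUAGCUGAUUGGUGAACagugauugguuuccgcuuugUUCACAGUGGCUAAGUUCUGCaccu
Mir24-2: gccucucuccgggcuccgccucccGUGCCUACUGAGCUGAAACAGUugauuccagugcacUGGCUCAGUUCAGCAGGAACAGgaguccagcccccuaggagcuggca
Mir24-1: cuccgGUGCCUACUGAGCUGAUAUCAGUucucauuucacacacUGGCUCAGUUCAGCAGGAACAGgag

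Cluster a spans 404 bases of the plus strand at chr8:84208518-84208921. In GENCODE M21 on GRCm38, its hairpins Mir23a and Mir27a overlap no other annotated gene, and the end of Mir24-2 meets the start of the long non-coding gene Gm26532. Cluster b spans 792 bases of the plus strand at chr13:63300484-63301275, within the protein-coding gene 2010111I01Rik and opposite an intron of Fancc. Mir23b lies in an intron of 2010111I01Rik, while Mir27b and Mir24-1 each lie within an exon of at least 1 of its transcripts. Mir3074-1 and Mir3074-2 are annotated on the strand opposite to Mir24-1 and Mir24-2. Their miRNAs, miR-3074-5p, miR-3074-1-3p and miR-3074-2-3p, had no entry among the counted sequences.

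All 8 libraries held between 1120035 and 1638036 counts. Levels are given as counts-per-million (CPM) of the library size scaled by trimmed mean of M-values (TMM) factors, which ran from 0.894 to 1.02 in chow and from 0.972 to 1.13 in HFrD. In a principal component analysis chow replicate 4 stood apart: its score on component 1, which held 37.4% of the variance, was −5.14, and those of the other chow libraries were −1.69 to −0.52. Its values are named where they decide a result. Blank cells of the table, which lists no value below 2, were read as 0. The hepatocyte markers miR-122-5p and miR-192-5p were abundant in every library, at 119580 CPM or more and at 84061 CPM or more.

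A single strand made up most of the counts of the 9 members. The 9 members held 0.805%, 0.906%, 0.814% and 0.991% of the counts in chow replicates 1 to 4, and 0.756%, 0.707%, 0.675% and 0.718% in HFrD replicates 1 to 4. Between 90.6% and 92.8% of these counts were miR-27b-3p, which ranked 8th to 11th of all sequences, and another 4.49% to 5.64% were miR-24-3p. The other 7 members together had 268 to 393 counts per library, which is the depth behind every value given for them. A 21-base form of miR-24-3p, described further below, had 397 to 677 counts per library. It is not among the 9 members and is left out of these shares and of the order of levels.

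The order of mean levels over the 8 libraries was miR-27b-3p (7374 ± 1490 CPM, SD, n = 8), miR-24-3p (406 ± 71.6), miR-23b-3p (71.8 ± 12.7), miR-24-2-5p (56.4 ± 17.0), miR-27a-3p (45.0 ± 7.64), miR-23a-3p (36.1 ± 4.89), miR-27a-5p (33.0 ± 10.7), miR-27b-5p (5.22 ± 2.14) and miR-24-1-5p (0.759 ± 0.822). These strands are 21 to 23 bases long, and how length or the capture of each sequence bears on the order was not tested. The ranges of the libraries overlapped between each neighbouring pair from miR-23b-3p down to miR-27a-5p. miR-23a-3p was above miR-27a-5p in 4 of 8 libraries. Among the members, miR-27b-3p, miR-24-3p, miR-27b-5p and miR-24-1-5p each stood clear of their neighbours in every library.

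**Figure D1:**
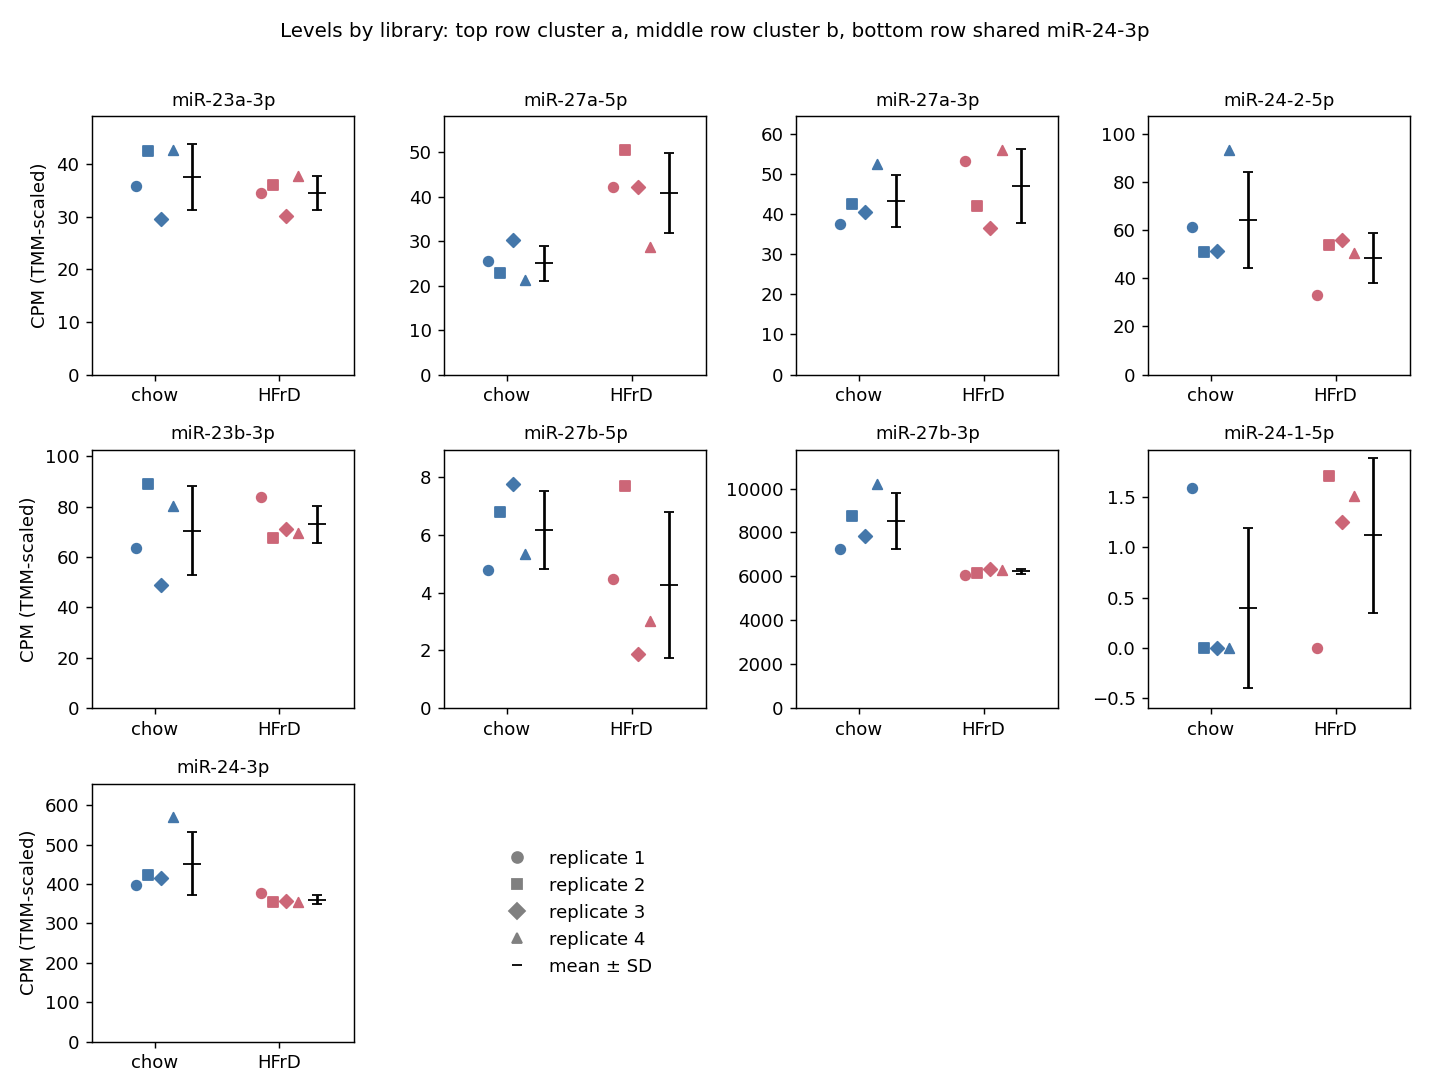
Level of each member by library (y axis, CPM on TMM-scaled library size) in chow and HFrD, with 1 point per library, its shape giving the replicate number, and the mean ± SD beside it (n = 4). miR-27b-3p and miR-24-3p are the panels in which the diets do not overlap, and points of miR-24-1-5p at 0 are blank cells.

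The libraries on HFrD were set against those on chow to find members that respond to the diet. miR-27b-3p was lower in HFrD by 1.37-fold, and the other 6 members that could be tested did not pass the threshold. The largest difference among those 6 was in the opposite direction, in the passenger strand miR-27a-5p, with means of 25.0 ± 3.92 CPM in chow and 40.9 ± 9.04 CPM in HFrD (SD, n = 4 each). Across all 170 tested sequences 5.88% were called by edgeR's quasi-likelihood test at an adjusted p of 0.05, 3.53% as lower and 2.35% as higher in HFrD, and a single call among 7 members does not set the clusters apart from the rest. An unadjusted p under 0.05 was found for 3 of the 7, beside 23.5% of all tested sequences. Groups that did not overlap were found for 2 of the 7, both lower in HFrD, beside 14.1% of all tested sequences in either direction and 8.24% in that one. miR-27b-5p and miR-24-1-5p had too few counts for the filter and were not tested.

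mmu-miR-27b-3p, the guide strand of Mir27b, was at 7266, 8742, 7854 and 10223 CPM in chow replicates 1 to 4. In HFrD replicates 1 to 4 it was at 6078, 6167, 6354 and 6310 CPM. Every HFrD library lay below every chow library, and the HFrD libraries lay closer together (6227 ± 127.8 CPM, SD, n = 4) than the chow libraries (8522 ± 1286 CPM). edgeR estimated a log2 fold change of −0.45 with an SE of 0.099 (adjusted p = 0.0123). The groups were also apart over plain library totals, where edgeR gave −0.32 (adjusted p = 0.0248) and that of the median miRNA moved from 0.01 to 0.13. The call ended without chow replicate 2 (adjusted p = 0.0713) and with upper quartile factors (0.154), and held without chow replicate 4 (−0.38, adjusted p = 0.0153, edgeR).

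Markers of cells in which these clusters are also active were read beside the results, because in bulk liver fewer cells of a type and less RNA per cell cannot be told apart. Of 6 endothelial markers 3 were listed. Their summed level was 7562 to 10206 CPM in chow and 6006 to 6992 CPM in HFrD, without overlap on the TMM scale. Among all 170 tested sequences 14.1% did not overlap on that scale, and 5.88% were called. miR-126a-3p, which makes up most of the endothelial sum, fell (−0.43, SE 0.098, adjusted p = 0.0123, edgeR). Over plain library totals both the sum and miR-126a-3p were higher in HFrD replicate 1 (TMM factor 1.13) than in chow replicate 1 (1.02), so the groups overlapped. miR-126a-5p (−0.12) and miR-139-5p (−0.04) did not pass. The part of endothelial cells in the drop of miR-27b-3p was not tested.

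mmu-miR-27a-3p, the guide of cluster a with the same seed, did not pass the threshold. It was at 37.4, 42.5, 40.4 and 52.5 CPM in chow and at 53.2, 42.0, 36.5 and 55.9 CPM in HFrD. The groups overlapped throughout, and edgeR estimated a log2 fold change of 0.12 with an SE of 0.19 (adjusted p = 0.694). Summed over both paralogs, miR-27-3p gave −0.45 as well (SE 0.099, adjusted p = 0.0120, edgeR), since the b form holds almost all of the counts.

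mmu-miR-23a-3p had 45, 50, 38 and 48 counts in chow and 54, 42, 48 and 50 counts in HFrD. In CPM the means were 37.6 ± 6.26 and 34.6 ± 3.25 (SD, n = 4 each), and the estimate of edgeR was −0.12 on the log2 scale (SE 0.19, adjusted p = 0.695). mmu-miR-23b-3p had 80, 105, 63 and 90 counts in chow and 131, 79, 113 and 92 counts in HFrD. Its means were 70.5 ± 17.8 and 73.0 ± 7.38 CPM, and the estimate of edgeR was 0.06 on the log2 scale (SE 0.18, adjusted p = 0.821). Neither miR-23 strand differed between the diets by more than the spread of its libraries, and the sign of each changed with the processing.

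mmu-miR-24-3p, which cannot be assigned to a cluster, was at 397, 423, 416 and 570 CPM in chow and at 378, 354, 356 and 354 CPM in HFrD. The groups did not overlap on this scale, but over library totals HFrD replicate 1 (426 CPM) lay above chow replicates 1 to 3 (399 to 407 CPM). Its log2 fold change of −0.32, with an SE of 0.12, did not pass (adjusted p = 0.0953, edgeR). Without chow replicate 4, its highest library, it was −0.22 (adjusted p = 0.208, edgeR).

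mmu-miR-24-2-5p, the passenger strand that is specific to cluster a, had 77, 60, 66 and 105 counts in chow and 52, 63, 89 and 67 in HFrD. Chow replicate 4 was again the highest, with 93.5 CPM where the rest of the chow libraries had 51.0 to 61.3 CPM. edgeR estimated −0.41 on the log2 scale with an SE of 0.21 (adjusted p = 0.281). The estimate was −0.20 without that library and −0.23 without HFrD replicate 1, the lowest at 33.3 CPM. miR-24-1-5p, its counterpart in cluster b, was listed with 2 counts in chow replicate 1 and in HFrD replicates 2, 3 and 4, and was blank in the other libraries.

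mmu-miR-27a-5p, the passenger strand of Mir27a, had 32, 27, 39 and 24 counts in chow and 66, 59, 67 and 38 counts in HFrD. Its levels in CPM were thus 25.5, 22.9, 30.3 and 21.4 in the chow libraries, and in the HFrD libraries 42.3, 50.5, 42.1 and 28.7. Only HFrD replicate 4 lay within the chow range, below chow replicate 3, and over library totals the groups did not overlap. At a log2 fold change of 0.70 with an SE of 0.22 it stayed short of the threshold (adjusted p = 0.0566, edgeR). Of 22 alternative settings 9 called it, and its adjusted p ranged from 0.0124 to 0.193 and its log2 fold change from 0.59 to 0.84 over all 22. miR-27b-5p, with a different seed, had 6, 8, 10 and 6 counts in chow and 7, 9, 3 and 4 in HFrD, too few to test after filtering.

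**Figure D2:**
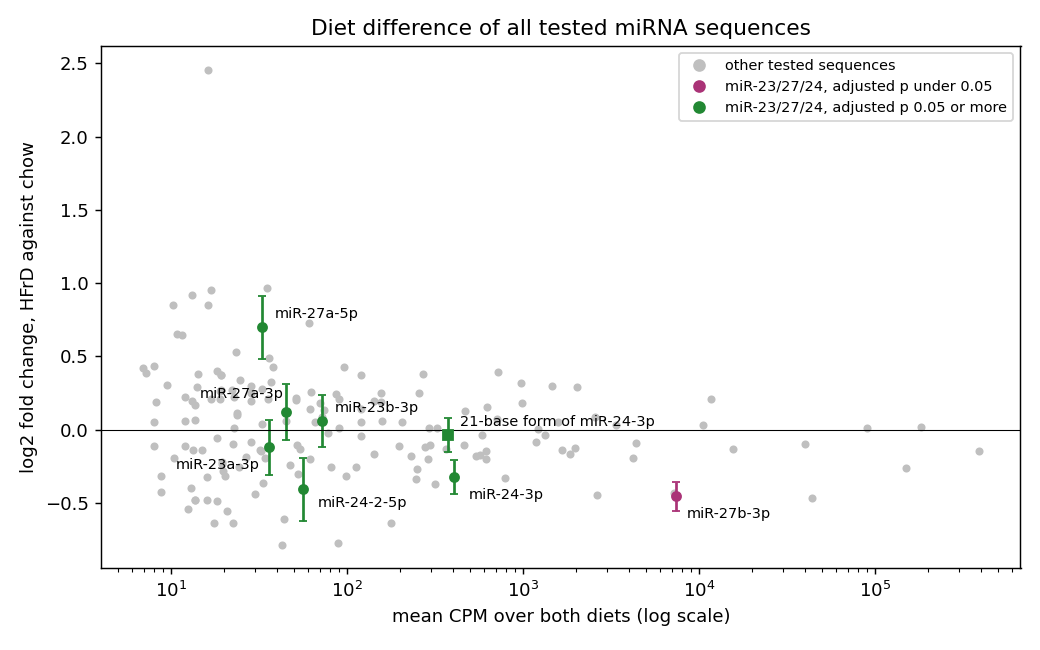
Log2 fold change of HFrD against chow (y axis) by mean CPM over both diets (x axis, log scale) for the 170 tested sequences, with the tested strands of miR-23, miR-27 and miR-24 in colour and bars for their SE. miR-27b-3p lies at −0.45 and miR-27a-5p at 0.70, and the other coloured points lie between −0.41 and 0.12.

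The levels of the paralogs were compared within each library, where scaling cancels. The 3p strands compared were higher in cluster b and the 5p strands in cluster a. Only miR-27 had both arms in the comparison, since miR-24-3p cannot be assigned to a cluster. miR-23a-5p had 2 counts in chow replicate 3 and was blank elsewhere, and miR-23b-5p had no entry. How the capture of each sequence bears on these levels was not tested. miR-27b-3p exceeded miR-27a-3p by 162-fold and miR-23b-3p exceeded miR-23a-3p by 1.96-fold on the geometric mean, in 8 of 8 libraries each. The a forms were higher among the 5p strands, in 8 of 8 libraries each: miR-27a-5p exceeded miR-27b-5p by 6.17-fold, and miR-24-2-5p had 579 counts over all libraries against 8 for miR-24-1-5p. For each of these 4 pairs the exact two-sided sign-flip permutation test gave p = 0.00781, the smallest that 8 libraries allow (0.00781 after adjustment over the 4).

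Neighbours within cluster b were also unequal. miR-27b-3p exceeded miR-23b-3p, which comes from the same primary transcript, by 114, 98.0, 160.3 and 127.6-fold in chow replicates 1 to 4. In cluster a the ratio of miR-27a-3p to miR-23a-3p was between 1.00 and 1.37 in chow and between 1.17 and 1.54 in HFrD. So cluster b held a pair of 3p strands with very unequal counts, and cluster a a pair with like counts. Scaling cancels in these ratios, but how the capture of each sequence bears on them was not tested.

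Diet differences in 8 ratios within libraries were then tested by exact permutation, two-sided, over all 70 ways to assign 4 of the 8 libraries to a diet, which cannot give a p below 0.0286. In 3 ratios the diets did not overlap, and none passed after adjustment over the 8 (adjusted p = 0.0762 for each of the 3). A background exists only for 13 pairs of miRNAs that differ at 1 base, described below. Of these pairs, miR-27b-3p with miR-27a-3p included, 15.4% had ratios that did not overlap. The 3 ratios were already at the smallest p of the exact permutation test. With only 3 of 8 ratios there, the adjustment could not bring them under 0.05, so their not passing decides nothing. The first was miR-27b-3p to miR-27a-3p, which was 194, 206, 194 and 195 in chow and 114, 147, 174 and 113 in HFrD. Its mean log2 value went from 7.61 ± 0.041 to 7.06 ± 0.30 (SD, n = 4 each), a difference of −0.55 (exact permutation p = 0.0286). The HFrD libraries were all lower and more spread. The chow libraries lay closer together than counting error alone would place them. Their shares of miR-27a-3p were 0.483% to 0.513%, where the 95% Wilson interval of chow replicate 1 alone was 0.386 to 0.681. Their closeness is therefore not read as a trait of the diet, and the lack of overlap rests partly on it. The difference ran from −0.67 to −0.46 when any library was left out.

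The ratio of miR-27b-3p to its neighbour miR-23b-3p was the second, at 72.4, 91.1, 89.5 and 90.8 in HFrD, below all 4 chow values given above. Its mean log2 value went from 6.93 ± 0.30 to 6.41 ± 0.16 (SD, n = 4 each; exact permutation p = 0.0286). The third ratio was miR-27b-5p to miR-27a-5p, whose mean log2 value went from −1.96 ± 0.26 to −3.29 ± 0.69 (SD, n = 4 each; exact permutation p = 0.0286), and it rests on 3 to 10 counts of miR-27b-5p per library. The 3 ratios are not separate from the differences of single strands given above. The first and second have miR-27b-3p as numerator, and the third has miR-27a-5p as denominator.

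The other 5 ratios overlapped between the diets. miR-23b-3p to miR-23a-3p had a difference in mean log2 value of 0.19 and miR-27a-3p to miR-23a-3p one of 0.22 (exact permutation p = 0.200 and adjusted p = 0.229 for both). The 5p to 3p ratio of Mir27a differed by 0.58 (exact permutation p = 0.143, adjusted p = 0.229), and that of Mir27b by −0.21 (exact permutation p = 0.657, adjusted over the 8 also 0.657). For miR-24-1-5p to miR-24-2-5p the difference of 1.34 (exact permutation p = 0.114, adjusted p = 0.229) depends on blank cells and on the 0.5 added to each count.

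**Figure D3:**
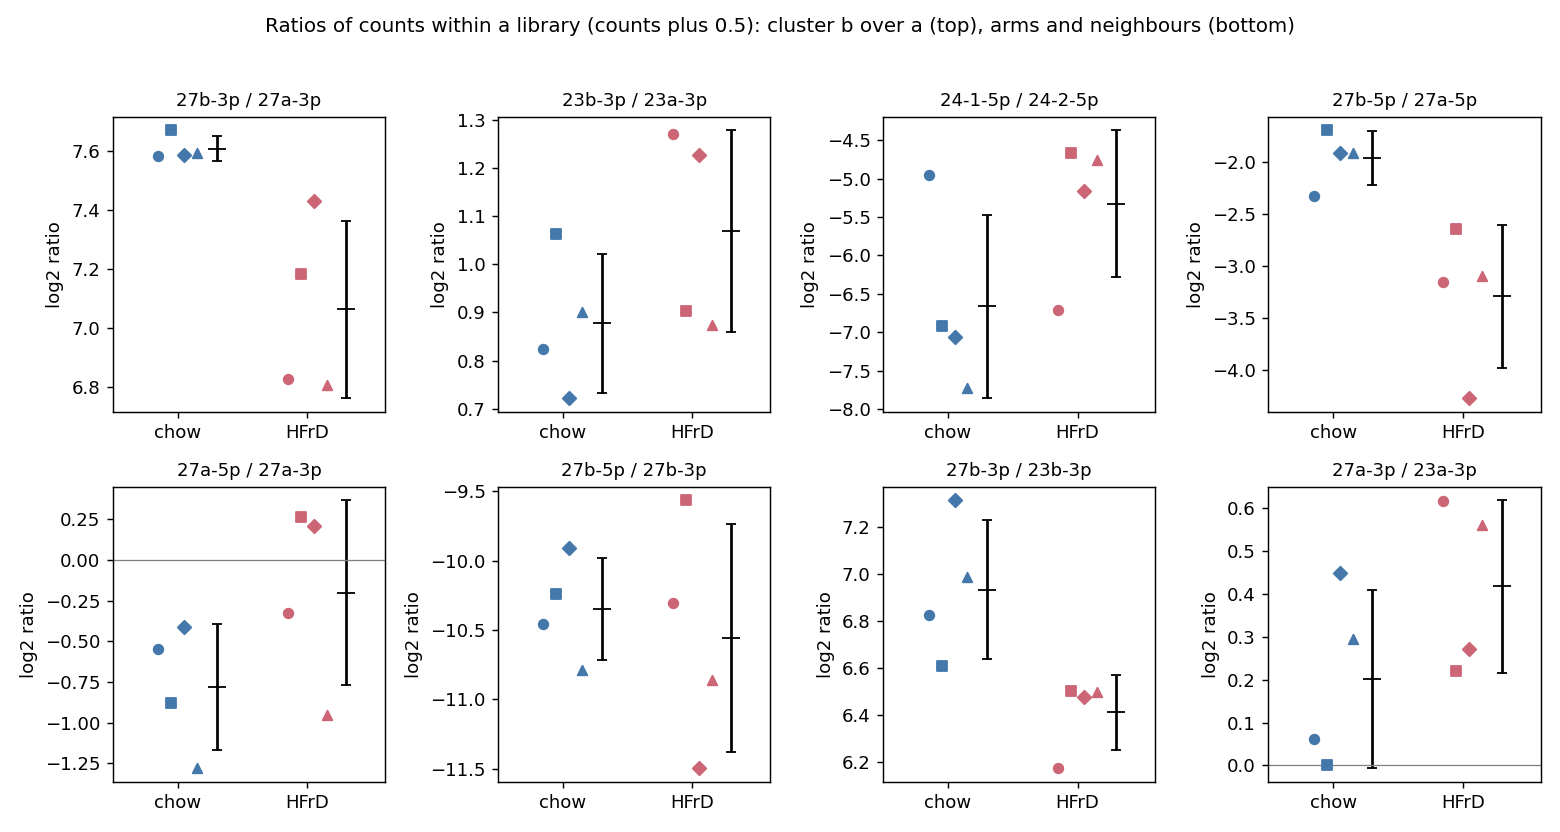
Log2 ratio of counts plus 0.5 within each library (y axis) for the 4 pairs of paralogs (top) and for arms and neighbours (bottom), with point shapes as in the plot of levels and the mean ± SD (n = 4). The diets do not overlap for 27b-3p / 27a-3p, 27b-5p / 27a-5p and 27b-3p / 23b-3p.

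The split between miR-27a-3p and miR-27b-3p rests on a single base near the 3′ end, and the rule by which reads with a mismatch were counted was not given in the sources used here. miR-27a-3p made up 0.513%, 0.483%, 0.512% and 0.511% of the sum of both in chow. In HFrD it made up 0.867% (95% Wilson interval 0.700 to 1.07), 0.676% (0.512 to 0.893), 0.570% (0.442 to 0.737) and 0.878% (0.700 to 1.10). The chow intervals, from 0.367 to 0.681 over the 4 libraries, cover counting error only. The intervals of HFrD replicates 2 and 3 reach into that range. Among the 13 pairs of tested, established miRNAs that differ at 1 base, this pair had the smallest share for its rarer form, at 0.486% to 0.886% of the commoner. The next was miR-29c-3p at 0.536% to 1.62% of miR-29a-3p. How many of the counts listed as miR-27a-3p came from miR-27b-3p molecules was not tested. Of the 13 pairs, 2 (15.4%) had ratios that did not overlap between the diets, miR-27b-3p with miR-27a-3p among them.

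The arms of Mir27a and Mir24-2 were also set against all hairpins. Of the 24 hairpins with both arms past the filter, 0% were called for a diet difference in the ratio of 5p to 3p by limma, and 20.8% had an unadjusted p under 0.05. Mir27a had a difference of 0.58 on the log2 scale (SE 0.29, adjusted p = 0.239, limma), from a mean of −0.78 in chow to −0.20 in HFrD. In HFrD replicates 2 and 3 the passenger strand outnumbered the guide. Mir24-2 had a difference of −0.08 (SE 0.24, adjusted p = 0.846, limma), with miR-24-3p taken as its 3p arm although Mir24-1 makes the same strand.

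A further form of miR-24-3p was listed in the table under a name of the authors' own, as a predicted miRNA of chromosome 8. It is the first 21 bases of miR-24-3p and lacks the last base.
miR-24-3p: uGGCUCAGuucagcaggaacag
21-base form: uGGCUCAGuucagcaggaaca
Since both Mir24-1 and Mir24-2 contain these bases, its counts cannot be assigned to a chromosome either. It was about as abundant as the established form, with 434, 397, 528 and 469 counts in chow and 490, 420, 677 and 494 in HFrD. Its mean was 378 ± 42.2 CPM in chow and 368 ± 46.0 CPM in HFrD (SD, n = 4 each), and edgeR gave −0.04 on the log2 scale (SE 0.12, adjusted p = 0.823).

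The 22-base form made up 53.5%, 55.6%, 50.3% and 57.7% of both forms in chow and 54.6%, 49.6%, 45.6% and 48.7% in HFrD. HFrD replicate 1 lay within the chow range, and the other HFrD libraries lay below it. The mean log2 ratio of the forms went from 0.25 ± 0.18 to −0.02 ± 0.22 (SD, n = 4 each; exact permutation p = 0.114), which did not pass. With both forms summed, edgeR gave −0.19 for miR-24-3p (SE 0.10, adjusted p = 0.285), against −0.32 for the established form alone.

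**Figure D4:**
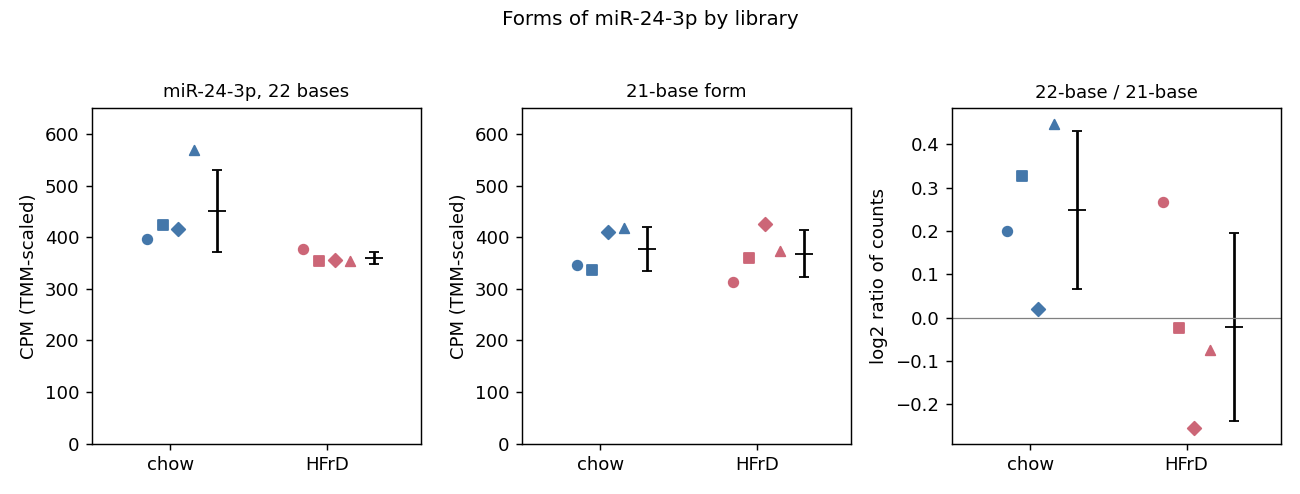
Level of the 22-base miR-24-3p and of its 21-base form by library (y axis, CPM), and the log2 ratio of their counts (right), with point shapes as in the plot of levels and the mean ± SD (n = 4). The 22-base form of chow replicate 4 is the highest point at 570 CPM, and the 21-base form overlaps between the diets.

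The highest library of both miR-27b-3p and miR-24-3p was chow replicate 4, and likeness between strands was read with and without it. After diet means of log2 CPM had been subtracted, Pearson's r between these 2 strands was 0.88 over 8 libraries (Spearman's rho 0.62) and 0.43 over the 7 without it. The sequences most like miR-27b-3p over 8 libraries were miR-30e-5p (r = 0.94, rho = 0.93), miR-30a-5p (r = 0.94, rho = 0.93) and miR-181d-5p (r = 0.93, rho = 0.83). Without chow replicate 4 their r was 0.78, 0.75 and 0.90, and their rho 0.93, 0.89 and 0.64. The level of miR-181d-5p was low, at 3.98 to 9.07 CPM. Those most like miR-24-3p were the endothelial miR-126a-3p (r = 0.93, rho = 0.90), miR-93-5p (r = 0.91, rho = 0.71) and miR-152-3p (r = 0.89, rho = 0.81). Without that library r was 0.90 for miR-126a-3p but 0.46 for miR-93-5p and 0.084 for miR-152-3p. All 6 of these sequences had their highest chow value in chow replicate 4. Between the arms of Mir27a r was −0.64 with that library and −0.58 without it, and between miR-27b-3p and miR-23b-3p it was 0.56 and 0.51. These are descriptions of points that share a library and its scaling factor.

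Among 5 hepatocyte markers only miR-122-3p, the passenger strand of miR-122, was called, as lower (−0.64, SE 0.12, adjusted p = 0.0109, edgeR). The sum of the 5 was 616027 to 704499 CPM in chow and 581391 to 627984 CPM in HFrD. No member of the stromal (4 tested), biliary (4), erythroid (4) or muscle (2) lists was called, and their sums overlapped between the diets. With 5.88% of all tested sequences called, lists of this size say little by having no call. The 5 myeloid markers summed to 12.4 to 29.4 CPM in chow and, from 15.9 CPM upward, lay within that range in HFrD, none passed the filter, and miR-155-5p was at 0 in every chow library. Of 20 further miRNAs known for lipid metabolism, 17 were listed and 15 tested, and none was called, where a share of 5.88% would come to less than 1 call. Their median log2 fold change was 0.15, beside 0.01 for all tested sequences. Nearest to the threshold among them were miR-183-5p (0.43, SE 0.13, adjusted p = 0.0566) and miR-378a-3p (0.32, SE 0.10, adjusted p = 0.0586, both edgeR). The list also held miR-122-5p (−0.26, SE 0.097, adjusted p = 0.0985) and miR-128-3p (0.30, SE 0.19, adjusted p = 0.396, both edgeR), the last of which has its seed within miR-27.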

How the data were processed

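Raw tag counts per mature miRNA for 8 liver libraries were deposited as whole numbers, per the file headers. The authors also deposited a normalized score, which is the raw count over a divisor of its own for each library (4.21 to 6.19), rounded. The submitters' processing notes name cutadapt 1.9.2, Novoalign 3.02.12 and build mm10. The labels' protocols describe TRIzol extraction, removal of ribosomal RNA and a total RNA library. Not given in the sources used here are how small RNA was selected and how reads with several matches were counted, and either can shift a strand's level.

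The 484 entries were merged by sequence into 443, of which 170 passed filterByExpr (minimum count 10) and held 99.96% of the counts. Blank cells (35.3%) were read as 0. edgeR 4.0.16 (R 4.3.3) tested the diets by quasi-likelihood, two-sided, with TMM factors and Benjamini-Hochberg adjustment over all 170. The SE of a log2 fold change is its size divided by the square root of the F statistic. Arm ratios over hairpins (log2 of CPM plus 0.5) were tested with limma 3.58.1, and single ratios of counts plus 0.5 with exact permutation tests in scipy 1.17.1 (Python 3.11.15). Each count was worth 0.610 to 0.893 CPM. Reads carried no molecular identifiers that are recorded, so intervals cover counting error only.

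Alternatives covered scaling, filters, the test, merging of entries, pseudocounts, the replicate block and leaving out each library. The strands named are the 9 members, related entries, called members of the lists and the 3 sequences most correlated with miR-27b-3p and with miR-24-3p, and any others were named after their values had been seen. The members, lists and tests were chosen with earlier results of these data known. On simulated data of the 170 sequences, the edgeR test of the diets recovered 63.6% of 1.5-fold, 93.1% of 2-fold and 100% of 4-fold changes. These rates are of 247, 246 and 285 changes over 20 runs, not split by level. Each run changed more sequences than the 10 called in the data, which makes the adjustment less strict. The rates are therefore not read as the power for the members, most of which had low counts.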

Additional observations from a re-analysis of the deposited data

Results flagged for a closer look

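In 4 of 32 groups of 4 libraries, a single library stood farther from the rest than the 95% critical value of Dixon's test for 4 values, a limit that chance passes in about 1 of 20 groups. For miR-24-3p these were chow replicate 4, above the others (gap to range ratio 0.852), and HFrD replicate 1, above the others (0.892). For the ratio of miR-27b-3p to miR-27a-3p it was chow replicate 2, above the others (0.914). For the ratio of miR-27b-3p to miR-23b-3p it was HFrD replicate 1, below the others (0.927).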

How the results depend on the processing

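Depth limits what can be said of the strands other than miR-27b-3p and miR-24-3p, and with 3 libraries in a diet the exact tests cannot go below p = 0.0571. Instead of 10 miRNAs, 23 were called with library totals, 1 with upper quartile factors, 22 without a filter, 20 by limma on the authors' normalized score, 17 without predicted sequences, 22 with totals that leave out the 3 most abundant miRNAs, and 1 to 17 without 1 library. Removing predicted sequences, summing forms or paralogs, correlations without chow replicate 4 and leaving out the most abundant miRNAs were chosen after the data were seen. Instead of 1 member, 2 were called (miR-27b-3p and miR-27a-5p) with library totals, without a filter, with a minimum count of 30, with the replicate block, with the authors' score, without predicted sequences, without the 3 most abundant, without chow replicate 3 and without HFrD replicate 4. miR-27b-3p and miR-24-3p, 2 members, were called when entries were kept as deposited. None, 0 members, was called with upper quartile factors or without chow replicate 2, so the range without 1 library was 0 to 2.

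The log2 fold change of miR-27b-3p was negative in all 21 alternatives that tested it alone (−0.52 to −0.32) and called in 19. That of miR-24-3p was negative in all 21 that tested it alone (−0.39 to −0.19) and called in 1, and that of miR-27a-3p was positive in all 21 that tested it. Signs changed for miR-23a-3p (0.0059 with library totals, 0.011 with the authors' score) and miR-23b-3p (−0.0020 with entries as deposited, −0.078 to 0.20 without 1 library). They also changed for the 21-base form (0.083 with library totals, 0.081 with upper quartile factors, 0.030 without a filter, 0.016 with a minimum count of 30, 0.082 with the authors' score, 0.070 without the 3 most abundant, −0.12 to 0.056 without 1 library). Without 1 library, the diet difference in the arm ratio of Mir27b ran from −0.54 to 0.11 and that of Mir24-2 from −0.16 to 0.11. The cause of these changes was not tested.

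No pairing by the numbers of the labels was seen: same-numbered libraries had correlations of −0.10 to 0.15, and 1 of 4 chow libraries correlated best with its own number. With 4 libraries per diet these correlations cannot exclude a pairing. With the replicate block edgeR called 15 miRNAs, miR-27a-5p among them (0.69, adjusted p = 0.0390), and the paired exact test of a ratio cannot go below p = 0.125. The arm test called 2 hairpins rather than 0 with the block or with 5 CPM added, none of them of these clusters.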
